A study of Homo sapiens with 50 samples.

Results

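The transcriptome of untreated HepaRG cells is described here from 5 RNA sequencing libraries, which are all the libraries labelled Control among the 50 of the series. HepaRG is a human hepatic cell line that, once differentiated, forms cultures of hepatocyte-like and biliary-like cells and is used in place of primary hepatocytes in tests of drug metabolism. Differentiated cells were bought and held in a general medium up to day 8. The Control cultures were then kept from day 8 to day 14 in a test medium with 2% fetal bovine serum and 1% dimethyl sulfoxide (DMSO), a solvent that holds these cells in the differentiated state, with no pesticide added. The other 45 libraries, 5 in each of 9 groups, came from cells given mesotrione, isoxaflutole or quizalofop-p-ethyl and are not used here. The 5 libraries are called replicates 1 to 5, numbers that name them and carry no order. The labels do not say that they came from separate cultures, so the spread between them may be technical. HepaRG is a single line from 1 liver tumour, so none of the values speaks to variation between people.

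Hepatocytes make most proteins of blood plasma, convert foreign compounds with cytochrome P450 enzymes and conjugating enzymes, and form bile. Cells lining the bile ducts (cholangiocytes) share a precursor with hepatocytes and are told apart by keratins and surface proteins. A small circuit of transcription factors around HNF4A keeps hepatocyte genes on, and inflammation redirects the plasma proteins that hepatocytes secrete, the acute phase response.

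Levels are in FPKM, fragments per kilobase of transcript scaled to the depth of the library, summed over the transcripts of a gene. FPKM divides by length, so levels of different genes can be set side by side. Values are mean ± SD of 5 libraries unless said otherwise, and 5 values in a row are those of replicates 1 to 5. A gene is called detected where it held at least 1 FPKM in all 5 libraries. Of 19886 protein-coding genes 10991 were detected (55.3%), and of all 72503 genes and assembled loci 13272 (18.3%). Each library held 15227 to 17534 genes and loci at 1 FPKM or more. Replicate 2 stood apart with 17534, against 15227 to 15726 in the other 4, and most of that excess lay in assembled loci without a gene name (3122 against 1701 to 2037). The estimated depth was 11540000 to 24420000 fragments, at which 1 fragment in a transcript of 1 kilobase is worth 0.0410 to 0.0866 FPKM, so that levels under about 0.1 FPKM rest on a few fragments. The table lists several mitochondrially encoded mRNAs, which every cell uses, at 0, so a listed 0 may be a failed estimate. In these bulk samples, fewer cells of a type and less RNA per cell cannot be told apart.

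Short non-coding RNAs took the largest values. RN7SK, the RNA that holds the elongation factor P-TEFb inactive, stood at 100506 ± 10980.3 FPKM, and RN7SL2, an RNA of the signal recognition particle, at 42967 ± 15629.6. RPPH1, the RNA of ribonuclease P, reached 20391 ± 3127 and RMRP, its mitochondrial and nucleolar relative, 7385 ± 865. A further copy of the signal recognition particle RNA, listed as AL139099.5, held 58092 ± 10028. Protein-coding genes together held 45.4% ± 4.42 of the summed FPKM, from 42.0% to 52.7% by library, and the share was highest in replicate 5. RN7SL2 was lowest there, at 16758 FPKM against 41693 to 56373 in the other 4. The length division favours such short RNAs, and near-identical copies share their reads.

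Among protein-coding genes, ALB (serum albumin; chromosome 4, 73397114 to 73421412, GRCh38) ranked first with 9439.8, 9683, 10319, 9790.5 and 8579 FPKM. No library fell below 8579 FPKM, and ALB alone held 3.38% ± 0.297 of all protein-coding FPKM. FTL and FTH1, the light and heavy chains of the iron store ferritin, held 8487 ± 391 and 2558 ± 596. SERPINA1 (alpha-1-antitrypsin, which blocks neutrophil elastase; chromosome 14) stood at 5816, 5644, 6688, 8118 and 8111. The top 10 genes held 13.5% ± 0.864 of the protein-coding FPKM, the top 100 31.6% ± 1.60 and the top 1000 61.9% ± 1.34. Between 371 and 490 genes made up 50% of it, depending on the library. Of the 20 highest genes, 13 encode secreted plasma proteins: ALB, SERPINA1, APOE, FGB, APOA1, HP, FGG, C3, ORM1, RBP4, VTN, AMBP and RARRES2. The others were FTL, FTH1, the elongation factor EEF1A1, cytoplasmic actin ACTB, the carboxylesterase CES1, the matrix protein FN1 and MT-CO3, a mitochondrially encoded subunit of cytochrome oxidase.

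**Figure D1:**
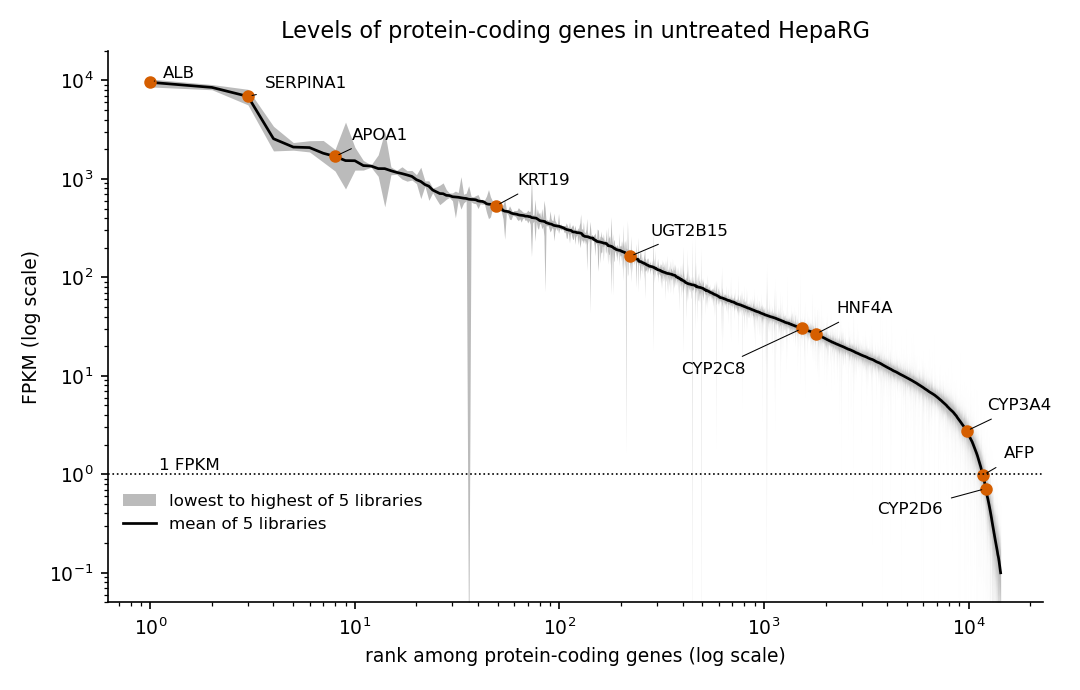
Level of each protein-coding gene (FPKM, log scale) against its rank by mean level (log scale), with the mean of 5 libraries as a line and their lowest to highest value as a grey band. ALB leads at 9562 FPKM, KRT19 lies at rank 49, and AFP and CYP2D6 lie below 1 FPKM. The deep notch at rank 36 is MT-CYB, listed at 0 in replicate 3.

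All 32 hepatocyte plasma protein genes of the list were detected, against 55.3% of protein-coding genes, with a median of 418 FPKM against 2.58 over all protein-coding genes. The apolipoproteins that coat lipid particles ran from APOE at 2078 ± 213 and APOA1 at 1691 ± 300.1 through APOC1 (710.0 ± 139.9), APOH (437 ± 32.6), APOC3 (432 ± 55.1) and APOB (232 ± 44.7) to APOA2 (98.1 ± 29.95). Fibrinogen, the clot protein, is built from 3 chains, and FGB (1822 ± 382), FGG (1528 ± 343) and FGA (941 ± 279.8) were all near the top. TTR and RBP4, the carriers of thyroid hormone and retinol, held 654 ± 145 and 1210.5 ± 78.9, and the iron carrier TF 552 ± 92.2. F2 (prothrombin) held 74.1 ± 7.49, of which transcripts carrying the name F2 made up 2.48 FPKM, the rest being assembled models of the same locus. The low end was PLG (plasminogen) at 5.61, 3.601, 3.53, 4.27 and 4.84, F9 (clotting factor IX) at 3.06 ± 0.8298, A1BG at 3.89 ± 0.372 and ITIH3 at 2.54 ± 0.813. In transcripts carrying the gene's name alone FGA held 621 and ITIH3 0.979. SERPINC1 (antithrombin) at 29.6 to 35.6 and PLG at 3.53 to 5.61 FPKM did not overlap, a gap that parts these 4 genes from the other 28.

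The 250 bases before the start of ALB and of FGA are printed because both genes lie in the top 30 and both stretches hold a motif of 9 letters known from promoters of hepatocyte genes. The sequences are RefSeq's for GRCh38.p14, ALB from chr4:73404037-73404286 on the plus strand and FGA from chr4:154590743-154590992 on the minus strand, with matches to the motif in capitals. The ALB stretch lies inside the span given for the gene above, since that span covers every named transcript and starts further upstream.
ALB: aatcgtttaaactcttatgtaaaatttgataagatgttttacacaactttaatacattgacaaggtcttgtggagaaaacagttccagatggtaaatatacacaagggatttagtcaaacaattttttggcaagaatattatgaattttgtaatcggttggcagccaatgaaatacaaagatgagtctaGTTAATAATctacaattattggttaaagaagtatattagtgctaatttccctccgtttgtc
FGA: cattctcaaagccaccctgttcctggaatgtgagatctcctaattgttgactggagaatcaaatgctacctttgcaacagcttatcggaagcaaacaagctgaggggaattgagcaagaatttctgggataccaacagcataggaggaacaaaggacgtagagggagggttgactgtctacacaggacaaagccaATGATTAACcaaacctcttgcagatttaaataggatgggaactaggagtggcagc
The motif searched was GTTAATNAT on either strand. It starts 61 bases before the start site in ALB and 55 in FGA, where it is read on the opposite strand. It lies in 254 of 35116 promoter stretches (0.723%), and in 3 of the 25 plasma protein genes that have a stretch there, ALB, FGA and PLG. These letters thus occur both at the top of the list and in PLG, at 3.53 to 5.61 FPKM near its foot. A match is only a match of letters, and no binding was measured.

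All 16 hepatocyte transcription factors were detected, against 55.3% of protein-coding genes, at 2.92 to 26.6 FPKM, far below the plasma proteins. HNF4A, the nuclear receptor at the centre of the circuit (chromosome 20, 44355700 to 44434596), stood at 27.9, 25.9, 23.2, 27.8 and 28.2. ONECUT1, a factor of early liver and bile duct development, held 26.2 ± 3.63 and CEBPA, an activator of metabolic genes in resting hepatocytes, 24.8 ± 1.82. CEBPB, which takes part in the acute phase response, was the least even member at 29.8, 2.22, 14.4, 11.5 and 36.03. Replicate 2 was lowest at 2.22 FPKM, replicates 3 and 4 lay between, and replicates 1 and 5 were highest. The pioneer factors FOXA3, FOXA1 and FOXA2 held 17.6 ± 1.98, 10.2 ± 0.556 and 8.54 ± 2.198, and GATA4 and GATA6 16 ± 0.876 and 5.88 ± 0.456. PROX1 and HHEX, needed for the liver bud, held 13.7 ± 1.24 and 13.4 ± 1.88. NR5A2 (7.12 ± 0.596) and KLF15 (6.24 ± 1.21) followed, and TBX3 (3.52 ± 0.282) and ONECUT2 (2.92 ± 0.216) were lowest. In the order of means, 14 of 15 neighbouring pairs overlapped in range, so most of the order is not resolved. The exception was GATA6 above TBX3.

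HNF4A is read from an upstream promoter called P2, known from fetal liver and pancreas, and a downstream promoter called P1, the main one of adult liver. Transcripts starting upstream (chromosome 20, 44355700 to 44355805) held 18.5, 19.7, 12.5, 18.8 and 15.4 FPKM, and those starting downstream (44401270 to 44401301) 9.43, 6.25, 10.7, 8.94 and 12.8. The upstream group was higher in each of the 5 libraries and held 63.7% ± 9.31 of the gene, from 54.1% to 75.9%. The transcript with most FPKM was HNF4A-202 of the upstream group, at 8.57 to 15.1 FPKM in a model of 1470 bases. HNF4A-201 of the downstream group held 3.603 to 7.90 FPKM over 6445 bases. The models differ in how far they extend at the 3′ end, and the split of shared exons between them is an estimate of the authors' software.

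Biliary markers ranged widely. Of 20 genes 11 were detected and 8 were under 1 FPKM in all libraries, shares close to the 55.3% and 38.5% of protein-coding genes. KRT19, a keratin of bile duct cells and progenitors (chromosome 17, 41523617 to 41528308), reached 596, 547, 482, 527 and 516 FPKM, rank 49 of protein-coding genes. The anion exchanger SLC4A2 held 108 ± 7.96, the annexin ANXA4 91.4 ± 18.4, osteopontin (SPP1) 64.04 ± 7.48 and the surface glycoprotein CD24 60.7 ± 4.305. ELF3, an epithelial factor, held 22.5 ± 12.2 and SOX9, the duct transcription factor, 11.6 ± 1.81. MUC1 (2.44 ± 0.927), the secretin receptor SCTR (1.66 ± 0.462) and GGT1 (1.47 ± 0.518) lay just above 1 FPKM. In transcripts carrying its name alone SCTR held 0.245 FPKM, so its detection rests on assembled models of the locus. CLDN4, a claudin, was above 1 FPKM in replicate 2 alone, at 0.904, 1.42, 0.814, 0.924 and 0.968. KRT7, the keratin usually paired with KRT19 in ducts, stood at 0.878, 0.767, 0.959, 0.346 and 0.722, and the chloride channel CFTR at 0.433 ± 0.0827. The water channel AQP1 held 0.252 ± 0.129, PKHD1, the gene of recessive polycystic kidney disease, 0.682 ± 0.153, and EPCAM, PROM1 and KRT23 were at 0.132 FPKM or less in every library. Assembled transcripts of the KRT7 locus, which holds more than 1 named gene, would raise KRT7 to 3.19 ± 0.888 FPKM if added by overlap. The same step would raise ELF3 to 44.2 ± 5.55.

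**Figure D2:**
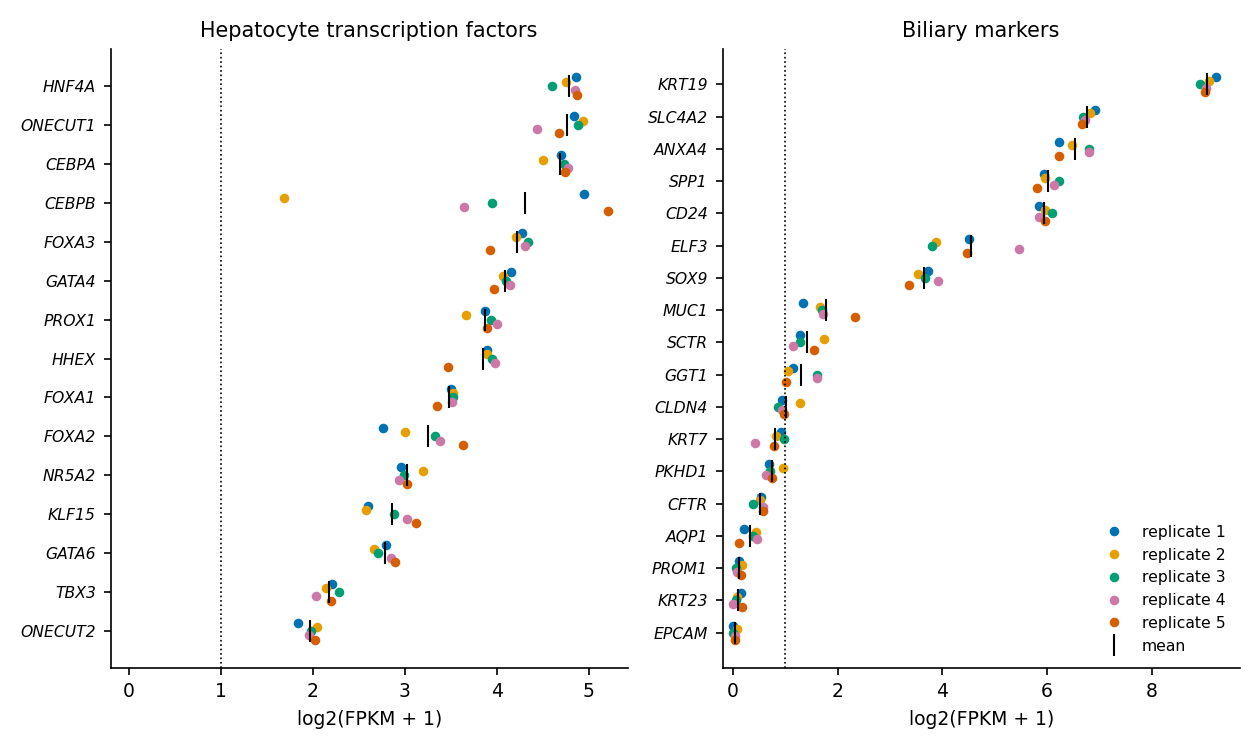
Levels of 15 hepatocyte transcription factors and 18 biliary markers as log2(FPKM + 1), 1 dot per library, with the mean as a black tick and 1 FPKM as a dotted line. All factors lie right of the line, CEBPB spreads from 2.22 to 36.03 FPKM, and biliary markers run from KRT19 at 534 FPKM down to EPCAM near 0.

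The keratins of simple epithelia, KRT8 and KRT18, held 637 ± 46.3 and 137 ± 18.04 FPKM, the latter 69.6 in transcripts carrying its name alone. The tight junction protein CLDN1 held 51.6 ± 2.65, the gap junction protein GJB1 44.7 ± 2.62, and CDH2 (44.4 ± 1.78) stood above CDH1 (22.99 ± 3.65), 2 cadherins that hepatocytes both carry, with ranges that did not overlap. KRT20 and KRT81 were under 1 FPKM in all libraries. Of 12 fetal and progenitor markers 5 were detected, against 55.3% of protein-coding genes. SOX4 led at 27.1 ± 3.42, followed by NCAM1 at 16.3 ± 2.96, the RNA binding protein IGF2BP3 at 3.602 ± 1.15 and LIN28B, a repressor of let-7 microRNAs, at 2.84 ± 0.226. Transcripts carrying the gene's name alone gave 6.84 for NCAM1 and 1.61 for IGF2BP3. AFP, the fetal counterpart of albumin, stood at 0.853, 1.33, 0.769, 0.791 and 1.16 and so crossed 1 FPKM between libraries. GPC3 and DLK1 were listed at 0 in all 5 libraries, and THY1, LGR5, IGF2BP1 and IGF2 stayed under 0.2 FPKM.

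Markers of other liver cell types were uneven, beside the 55.3% of all protein-coding genes that were detected. Of 12 endothelial genes 1 was detected, the VEGF receptor KDR at 1.65 ± 0.221, and the other 11 were under 1 FPKM in all libraries. The list summed to 2.53 to 2.99 FPKM, with CDH5, CLEC4G and CLEC4M listed at 0. Of 20 macrophage and leukocyte genes 5 were detected: the lysosomal protein CD68 at 5.14, 6.6, 10.5, 27.7 and 23.7, CD14 at 3.93 ± 1.103, LYZ at 3.27 ± 2.03, CD74 at 2.02 ± 0.793 and MARCO at 1.73 ± 0.585. The other 15 were under 1 FPKM in all libraries, among them PTPRC, the common leukocyte antigen, at 0.00798 to 0.0648, and C1QA, C1QB and C1QC, which were listed at 0. The summed level was 14.1 to 41.9 FPKM and highest in replicates 4 and 5, mostly through CD68. Stellate and mesenchymal markers had 9 of 16 detected, close to the 55.3% of protein-coding genes. They were led by ACTA2 at 49.98 ± 2.98, LUM at 27.9 ± 5.63, COL3A1 at 17.7 ± 2.95 and SFRP2 at 15.4 ± 2.79. Of ACTA2, a smooth muscle actin, 1.06 FPKM lay in transcripts carrying its name and the rest in assembled models of the locus. VIM, DES, PDGFRA, TAGLN, BGN and COL1A2 were under 1 FPKM in all libraries. Hemoglobin mRNAs were low and uneven, HBB at 8.5, 5.01, 0.0902, 3.54 and 0.32 and HBA2 at 5.95, 3.73, 0.477, 3.02 and 0.189, both highest in replicate 1 and near 0 in replicates 3 and 5.

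Of 21 cell cycle genes 19 were detected, against 55.3% of protein-coding genes, with a median of 11.2 FPKM. The replication genes TYMS and PCNA held 44.05 ± 4.399 and 42.6 ± 3.33, RRM2 39.6 ± 7.81, and the proliferation marker MKI67 21.1, 22.1, 19.7, 15.3 and 14.6. UBE2C and CCNB2, also genes of dividing cells, were under 1 FPKM in all libraries (0.124 to 0.586 and 0.112 to 0.285). The summed level ran from 280 FPKM in replicate 4 to 366 in replicate 1, and 10 of the 19 genes were highest in replicate 1, against 21.1% of protein-coding genes with a mean of at least 1 FPKM. In replicate 5, 9 of the 19 were lowest, against 17.9%.

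Cytochrome P450 enzymes oxidise drugs and other foreign compounds. Of the 23 on the list 11 were detected, 6 were under 1 FPKM throughout, and 6 crossed 1 FPKM between libraries. Of all protein-coding genes 55.3% were detected and 38.5% were under 1 FPKM throughout. CYP2C8 was highest (chromosome 10, 95036772 to 95069497) at 26.7, 29.7, 31.9, 29.9 and 33.1 FPKM, close over the libraries. CYP2E1, which oxidises ethanol and paracetamol, stood at 22.1, 19.3, 23.6, 29.5 and 40.5 and was highest in replicate 5. CYP3A5, a relative of CYP3A4, held 20.3 ± 5.46. Of CYP3A5, 6.60 FPKM lay in transcripts carrying its name. These 3 overlapped in range with each other and stood clear of CYP1B1 (7.86 ± 0.82). CYP2J2, CYP2R1 and CYP2U1, which act on fatty acids and vitamin D, followed at 5.49 ± 0.396, 4.34 ± 0.441 and 3.34 ± 0.164.

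CYP3A4, the main drug oxidase of adult liver, held 3.101, 2.8, 2.65, 2.697 and 2.53 FPKM, rank 9777 of protein-coding genes. Its level was below that of CYP3A5 in every library. CYP2B6 (3.57, 2.25, 0.662, 2.38 and 4.94) and CYP2C19 (4.07, 1.54, 3.405, 4.26 and 0.814) had like means and wide ranges, and CYP2A6 held 1.94 ± 0.559. CYP1A2 and CYP1A1, targets of the dioxin receptor AHR, stood at 1.77, 1.36, 0.762, 0.557 and 1.05 and 0.753, 0.625, 0.463, 0.462 and 0.431, and CYP2D6 at 0.707, 1.05, 0.503, 0.547 and 0.776. Assembled transcripts of shared loci would raise CYP2C19 to 5.37 ± 1.69 and CYP2C18 from 2.399 ± 0.877 to 4.84 ± 0.959 FPKM. In the order of means 17 of 22 neighbouring pairs overlapped, so the rank of most of these enzymes is not resolved. CYP2C, CYP3A and CYP2A genes are close relatives in clusters, and how the authors' software split their shared reads is not known.

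All 10 genes that supply P450 enzymes with electrons and haem were detected, against 55.3% of all protein-coding genes. POR, the shared reductase, held 38.1 ± 5.17, cytochrome b5 reductase CYB5R3 145 ± 43.4, the haem-binding protein PGRMC1 52.7 ± 3.03 and ALAS1, the first enzyme of haem synthesis in liver, 20.4 ± 1.5. POR therefore lay above every P450 of the list in mean level, in a comparison of levels per length. Of 12 P450 enzymes of fatty acids 6 were detected, near the share of all protein-coding genes, led by CYP4F11 (24.5 ± 8.75) and CYP4F3 (16.3 ± 3.91). CYP4V2 was listed at 11.3, 12.3, 12.1, 0.2801 and 12.9, at 0.28 in replicate 4 and above 11 FPKM in the other 4, and CYP4A11, a target of PPARA, at 7.33, 6.13, 5.96, 7.72 and 2.06, lowest in replicate 5.

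UDP-glucuronosyltransferases (UGTs), which attach glucuronic acid to drugs, bilirubin and steroids, were led by UGT2B15. The list of 19 genes summed to 528 ± 33.4 FPKM, above the 134 ± 8.03 of the 23 P450 drug enzymes in every library. This enzyme of androgens (chromosome 4, 68646630 to 68670628), stood at 158, 176, 189, 175 and 119 FPKM. UGT1A6, which takes small phenols, held 117, 103, 150.3, 131 and 59.2, lowest in replicate 5, and UGT2B4, an enzyme of bile acids, 109 ± 10.4. UGT1A1, the only enzyme that clears bilirubin, held 62.5, 68.2, 48.9, 33.9 and 78.5 and UGT1A9 35.6, 57.9, 22.5, 32.6 and 68.3. UGT1A genes differ in their first exon and share the rest, and the 9 on the list summed to 219 ± 14.2 FPKM, a coefficient of variation (CV, the SD as a share of the mean) of 6.51%, against 30.6% for UGT1A6, 29.8% for UGT1A1 and 43.8% for UGT1A9. UGT2B17 was listed at 13.9, 8.91, 0, 15.7 and 0.658, and UGT2B10 at 2.85, 0, 3.62, 0.4804 and 0.113. The sum of UGT2B15 and its near-identical neighbour UGT2B17 was 172, 185, 189, 191 and 119.6 FPKM. With assembled transcripts of shared loci added, UGT2B17 ranged only from 14.04 to 22.7 and UGT2B10 from 1.58 to 3.62. UGT1A5, UGT1A8, UGT1A10 and UGT2B28 were under 1 FPKM in all libraries, although assembled transcripts of the shared locus would raise UGT1A10 to 3.03 FPKM, from 0.0639 to 5.55.

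**Figure D3:**
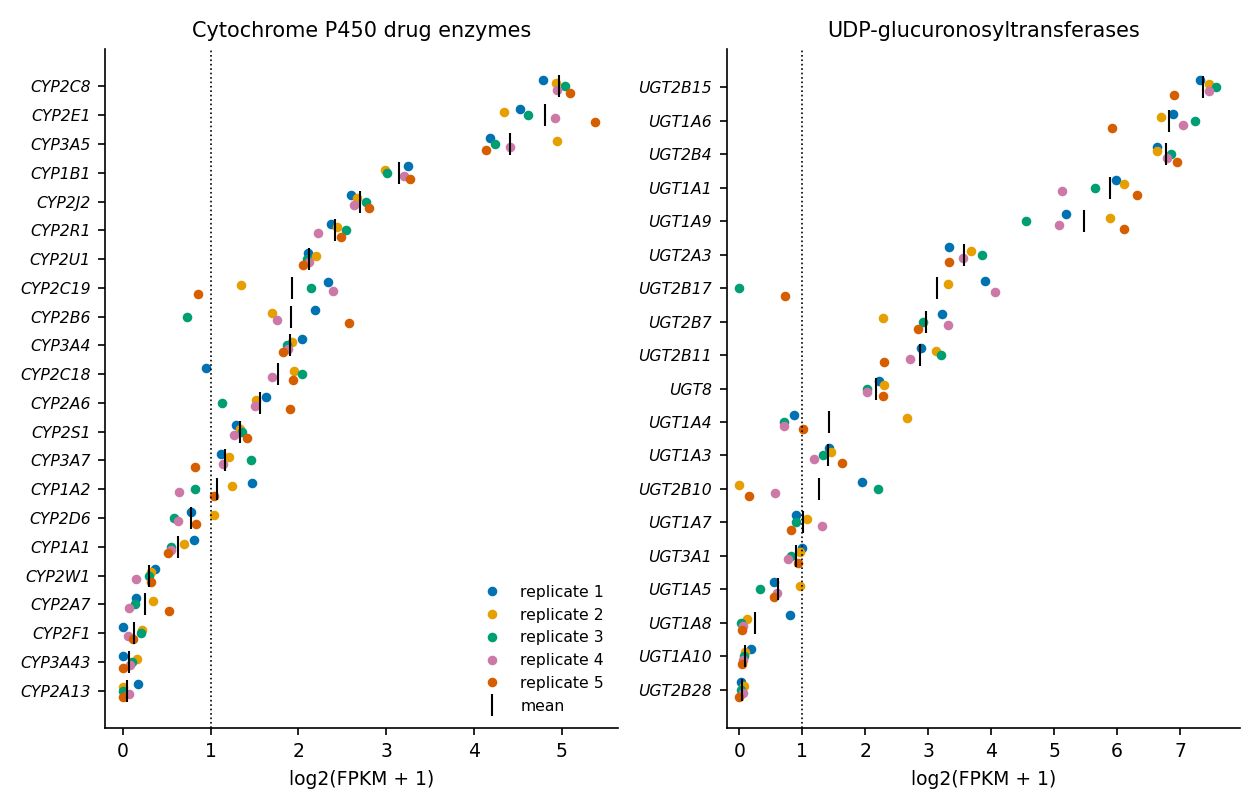
Levels of 22 P450 drug enzymes and 19 UGTs as log2(FPKM + 1), 1 dot per library, with the mean as a black tick and 1 FPKM as a dotted line. CYP2C8, CYP2E1 and CYP3A5 lead the P450 enzymes plotted at 20.3 to 30.3 FPKM, and 5 UGTs stand above 40 FPKM. UGT2B17 and UGT2B10 spread from 0 to above 3 FPKM.

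Sulfotransferases were led by SULT1A1 at 40.3 ± 3.94 and the steroid enzyme SULT2A1 at 21.8 ± 4.31. Of 9 on the list 3 were detected, against 55.3% of protein-coding genes. SULT1A2 and SULT1A3, close relatives of SULT1A1, crossed 1 FPKM between libraries. Glutathione transferases had 10 of 19 genes in the table detected, close to the share of all protein-coding genes. GSTA1, the main hepatocyte form, held 232, 345, 490.1, 620.1 and 314 and MGST1, GSTK1 and GSTO1 153 ± 13.3, 106 ± 4.35 and 80.7 ± 2.13. GSTP1, the form of bile ducts and many tumours, was listed at 0 in all 5 libraries. GSTA2, nearly identical to GSTA1, held 67.6 ± 19.96, and assembled transcripts of their locus would raise it to 335 ± 61.0.

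Of 40 other drug enzymes 36 were detected, against 55.3% of protein-coding genes, with a median of 30.1 FPKM. CES1, the main liver carboxylesterase (chromosome 16, 55802851 to 55833337), held 1351, 1343, 1357, 1385 and 1313 FPKM, with a CV of 1.94%. Its pseudogene CES1P1 stood at 199.8 to 550.5 FPKM with assembled transcripts added by overlap. Those transcripts are not in the CES1 values, and whether any belong to CES1 was not tested. Epoxide hydrolase EPHX1 held 613 ± 44.7, the steroid reductase AKR1C3 317 ± 18.5 and the retinal dehydrogenase ALDH1A1 313 ± 20.01. AKR1B10, an aldo-keto reductase known from liver tumours, stood at 324, 327, 605, 329 and 264, with replicate 3 above the rest. FMO1, the fetal flavin monooxygenase, and CES3 were under 1 FPKM in all libraries. NQO1 stood at 3.43 ± 1.42, and the acetylating enzymes NAT1 and NAT2 at 2.17 ± 0.303 and 1.25 ± 0.2705.

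Transporters that export conjugates led their list. ABCC3, which sends glucuronides back to the blood, held 78.2 ± 9.61 FPKM, ABCC2, its counterpart at the bile canaliculus, 42.8 ± 4.27, ABCB1 (P-glycoprotein) 21.7 ± 2.83 and ABCC1 20.6 ± 2.73. ABCC3 and ABCC2, and ABCC2 and ABCB1, did not overlap in range. In transcripts carrying the gene's name alone ABCC3 held 19.3 to 53.2, ABCC2 18.3 to 45.1 and ABCB1 16.96 to 23.9, and both separations were lost. Of 24 transporters 17 were detected and 6 were under 1 FPKM throughout, against 55.3% and 38.5% of protein-coding genes. These 6 included both main bile acid carriers of hepatocytes, the uptake carrier SLC10A1 at 0.895, 0.835, 0.659, 0.874 and 0.507 and the canalicular pump ABCB11 at 0.0455, 0.0694, 0.0376, 0.0353 and 0.341. SLC51A, SLC51B and SLCO1A2, which also move bile acids, and the sterol transporter ABCG5 were the other 4. ABCG8, with which ABCG5 pairs, held 9.32 ± 1.099 against 0.367 ± 0.0981 for ABCG5. Uptake carriers of drugs were moderate, SLCO2B1 at 10.3 ± 1.11, SLC22A7 at 9.78 ± 1.31 and SLCO1B1 at 4.49 ± 1.17, while SLCO1B3 (0.437, 0.795, 1.33, 0.107 and 0.833) passed 1 FPKM in replicate 3 alone. Transcripts carrying its name made up 5.45 FPKM of SLC22A7.

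Receptors for foreign compounds and lipids had 18 of 20 members detected, against 55.3% of protein-coding genes. AHR stood at 56.3 ± 4.44, its partner ARNT at 14.1 ± 1.48, RXRA, the shared partner of lipid receptors, at 39.3 ± 2.3, and the oxidant sensor pair KEAP1 and NFE2L2 at 31.2 ± 2.01 and 28.99 ± 2.68. PPARA, PPARD and PPARG, receptors of fatty acids, held 11.9 ± 0.577, 9.41 ± 0.9402 and 9.12 ± 1.28. In transcripts carrying the gene's name alone the order of the 3 turned, to 3.49 for PPARA, 6.06 for PPARD and 9.03 for PPARG, and ARNT held 3.66. NR1H4, the bile acid receptor FXR, held 8.04 ± 2.32 and its target NR0B2 4.07 ± 0.796. The 2 receptors that induce CYP3A4 and CYP2B6 were low: NR1I2 (PXR) stood at 2.17, 2.07, 1.52, 1.83 and 2.56, and NR1I3 (CAR) at 0.643, 0.193, 0.397, 0.473 and 0.915, under 1 FPKM in all libraries. ESR1 was also under 1 FPKM throughout.

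Bile acid synthesis from cholesterol was uneven along the pathway. CYP7A1, which sets the rate of the classic route, lay at 0.947, 1.03, 1.105, 0.841 and 1.09 FPKM, and CYP8B1, which leads to cholic acid, at 0.371 ± 0.206. AKR1D1, the reductase both routes need, held 0.243 ± 0.0538. In contrast CYP27A1 and CYP7B1, of the alternative route, held 15.2 ± 1.34 and 6.72 ± 0.919, HSD3B7 20.4 ± 1.36, and BAAT, which joins bile acids to taurine and glycine, 39.98 ± 3.696. Of 14 genes 8 were detected, close to the 55.3% of protein-coding genes. CYP8B1, AKR1D1 and CYP46A1, a cholesterol hydroxylase of brain, were under 1 FPKM in all libraries. BAAT did not overlap in range with CYP7A1. HSD3B7 held 12.9 in transcripts carrying its name alone.

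Of 8 urea cycle genes 7 were detected, against 55.3% of all protein-coding genes. ASS1 and ASL, the cytosolic steps that also make arginine, held 187 ± 19.4 and 52.9 ± 5.2, and CPS1, OTC and ARG1, the steps most typical of hepatocytes, 5.09 ± 1.01, 2.76 ± 0.474 and 2.96 ± 0.354. NAGS, which makes the activator of CPS1, was at 0.369 ± 0.0641. Tyrosine degradation had FAH at 47.7 ± 5.698, HGD at 30.6 ± 3.73, HPD at 24.6 ± 2.64 and GSTZ1 at 16.04 ± 2.42, with TAT, the first enzyme, at 0.609 ± 0.171. Of 10 genes of gluconeogenesis and glycogen 5 were detected, close to the share of all protein-coding genes. They were PYGL at 34.4 ± 2.53, PCK2 at 23.97 ± 2.66, PC at 23.5 ± 4.47, SLC37A4 at 16.4 ± 2.36 and G6PC at 3.25 ± 1.57. PCK1, FBP1 and GYS2 were under 1 FPKM in all libraries. SLC2A2, the glucose carrier of hepatocytes, held 0.292 ± 0.226 in transcripts of that name, and 10.0 ± 3.02 with assembled transcripts of its shared locus added. Genes typical of hepatocytes near the portal vein had 6 of 10 detected and those typical of the central vein 4 of 10. These lie on either side of the 55.3%, and no difference between zones is read from them. The central vein list was led by GLUL (glutamine synthetase) at 72.98 ± 9.905 and CYP2E1. In transcripts carrying the gene's name alone HGD held 19.7, SLC37A4 10.1 and GLUL 39.6. LGR5, RHBG, SLC1A2, OAT and NKD1 were under 1 FPKM in all libraries.

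Long non-coding RNAs were led by MALAT1, a nuclear RNA, at 106, 241, 139.8, 109 and 146, with NORAD at 68.3 ± 7.21 and GAS5 at 59.8 ± 6.13. MALAT1 and NEAT1 (11.1, 23.8, 5.704, 5.22 and 9.86) were both highest in replicate 2, the library with the most genes at 1 FPKM or more. Mitochondrially encoded mRNAs were listed unevenly: MT-CO3 at 1027, 1211, 1091, 947 and 1199, MT-CYB at 755, 852, 0, 679 and 823, and MT-CO1, MT-CO2, MT-ATP6, MT-ATP8, MT-ND4, MT-ND4L and MT-ND5 at 0 in all libraries. MTATP6P1, a nuclear copy of MT-ATP6, was listed at 131, 139, 0, 98.3 and 131. Levels of mitochondrial genes are therefore given only as listed, and nothing is read from them.

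All 18 reference genes were detected, against 55.3% of protein-coding genes, with CVs of up to 30.7%. RPL13A (4.84%) and SDHA (5.28%) were among the steadiest, and PPIA (30.7%), TBP (17.6%), YWHAZ (17.5%) and B2M (16.8%) least steady. ACTB and GAPDH, the common choices, had CVs of 8.797% and 14.4%. The lowest CVs of all genes with an official symbol and a mean of at least 10 FPKM belonged to HADHA (fatty acid oxidation, 76.02, 76.6, 76.9, 75.6 and 76.2 FPKM), CANX (a chaperone of the endoplasmic reticulum) and STAU1 (an RNA binding protein), at 0.623%, 0.826% and 0.884%. ARF3, WIPI2, CDIPT, APP, AFG3L2, STARD7 and COX4I1 followed, none above 1.53%. These are the extremes of a distribution over many genes and rest on 5 libraries.

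The libraries resembled each other closely. Pearson's r of log2(FPKM + 1) over the 10991 detected protein-coding genes was 0.969 to 0.976 for the 10 pairs, a description across genes, which are not independent. Of 7807 protein-coding genes with a mean of at least 5 FPKM the median CV was 10.5%, and the middle 50% lay between 7.05% and 16.5%. Counting error, estimated from the depth, was smaller in each of 5 depth classes. Among genes with an estimated 25 to 100 fragments the median CV was 24.1% where counting gives 13.6%, and above 6400 fragments it was 8.35% where counting gives 1.04%. Beyond 1600 fragments the observed median changed little, from 8.44% to 8.35%.

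**Figure D4:**
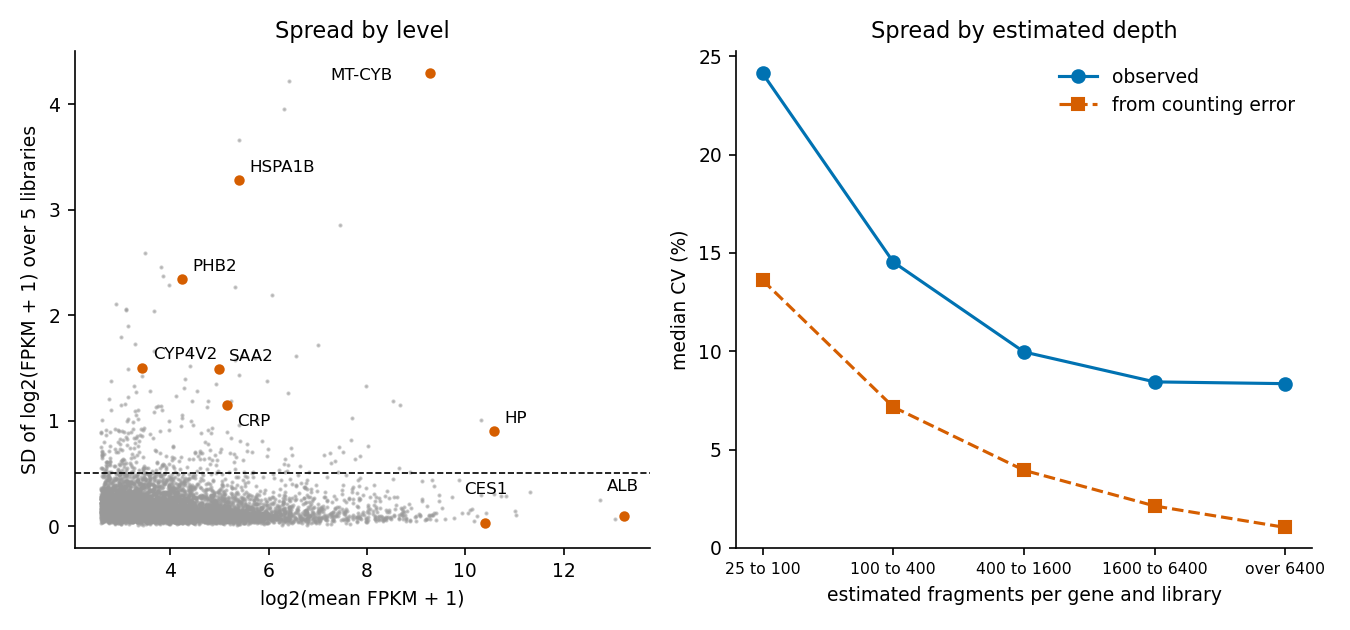
Left, SD of log2(FPKM + 1) over 5 libraries against log2(mean FPKM + 1), 1 grey dot per protein-coding gene with a mean of at least 5 FPKM, named genes in orange and 0.5 as a dashed line. Right, median CV (%) of genes by estimated fragments per library, observed (circles) and as counting error gives it (squares). The observed median falls from 24.1% to 8.35% and the counting error from 13.6% to 1.04%.

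An SD of log2(FPKM + 1) above 0.5 was found for 565 of 8713 genes and loci with a mean of at least 5 FPKM (6.48%) and for 306 of the 7807 protein-coding ones (3.92%). In 663 of the 8713 (7.61%) 1 library stood apart by Dixon's ratio, the gap to the nearest library over the whole range, above 0.71, where chance gives about 5%. The widest protein-coding genes switched between near 0 and far higher levels. HSPA1B, a stress-induced chaperone, was listed at 0.508, 0.916, 0.475, 112 and 92.1, while its near-identical neighbour HSPA1A stood at 42.1 to 71.3. The sum of both was 62.95, 69.5, 71.8, 162 and 134 FPKM, so HSPA1A and HSPA1B together were still highest in replicates 4 and 5. EIF3CL, a copy of the translation factor EIF3C, was listed at 1.8, 0.247, 0.715, 0.541 and 64.1, PHB2, a mitochondrial scaffold, at 46.98, 1.62, 0.533, 2.19 and 38.1, SDHD, a subunit of succinate dehydrogenase, at 15.1, 0.641, 0.193, 27.3 and 30.1, and RPL17, a ribosomal protein, at 9.89, 3.38, 98.3, 2.73 and 79.5.

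Most of that second group depended on the assembled transcripts. With those of shared loci added by overlap, EIF3CL stood at 58.2, 52.9, 53.5, 53.1 and 73.1 FPKM and its SD of log2 was 0.20 in place of 2.37. SDHD then ranged from 25.01 to 39.7 FPKM (SD of log2 0.30) and PHB2 from 24.8 to 50.9 (0.51), while RPL17 kept 1.37 and HSPA1B did not change. Other wide ones were small RNAs and copies, among them RN7SL4P at 9240.4, 7412, 7696, 7549 and 0.758 and SCARNA2, a small RNA of the nucleus, at 0, 432, 0, 0 and 0. CES1P1, a pseudogene of CES1, was listed at 0.03797, 44.5, 0.749, 0.0692 and 135, and at 199.8 to 550.5 FPKM with the overlap step.

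Single transcripts of SERPINA1 and FGG varied more than the genes. SERPINA1-205 was listed at 0 in replicates 1, 2 and 4 and at 2487 and 1925 FPKM in replicates 3 and 5, and SERPINA1-203 at 1154 to 6972, while the gene ranged from 5644 to 8118. FGG-204 was at 0 in 4 libraries and at 586 FPKM in replicate 4, where FGG-203 and FGG-201 were lowest, while FGG as a gene ranged from 1228 to 2096.

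Replicate 5 stood apart in the acute phase list. Of the 16 acute phase genes 15 were detected, against 55.3% of protein-coding genes. Of the 15 detected, 14 were highest in replicate 5, where 18.8% of protein-coding genes with a mean of at least 1 FPKM are highest. SAA1 and SAA2 (serum amyloid A, chromosome 11) stood at 17.7, 10.4, 14.02, 22.9 and 139.8 and 12.3, 8.31, 9.94, 11.6 and 111, so that replicate 5 was 8.597 and 10.6 times the mean of the other 4. LCN2 (lipocalin, which binds bacterial iron carriers) stood at 38.1, 29.1, 37.5, 50.4 and 261 and CRP (C-reactive protein) at 15.7, 14.8, 16.02, 24.1 and 102. HP (haptoglobin, which binds free haemoglobin) was 1056, 790.1, 951, 1094 and 3774, ORM1 (orosomucoid) 1029.8, 519.7, 595, 1177 and 3029, and C4BPA, a complement regulator, 17.4, 14.9, 16.4, 18.5 and 59.2. In each of these replicate 5 was above all other libraries, which lay close together for SAA2, CRP and C4BPA and further apart for ORM1. In transcripts carrying its name alone C4BPA held 25.5 in replicate 5 and 5.93 to 13.3 in the others. CFB (1.95 times), SERPINA3 (2.46), ORM2 (4.02), CP, FGL1, SAA4 and SOCS3 were likewise highest there. LBP, which binds bacterial lipopolysaccharide, was the exception, lowest in replicate 5 at 37.4, 26.7, 66.5, 33.7 and 17.1. That reverses when assembled transcripts of its shared locus are added, 66.3, 55.7, 84.3, 71.1 and 150.3 FPKM. HAMP (hepcidin) was under 1 FPKM in all libraries.

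The 250 bases before 2 of these genes are printed since replicate 5 set them apart. They are from RefSeq, GRCh38.p14, C4BPA from chr1:207103983-207104232 and LCN2 from chr9:128149203-128149452, both on the plus strand. Capitals mark GTTAATNAT in C4BPA, the letters also found in ALB and FGA, and in LCN2 a relaxed NF-kB motif, GGG, 2 free letters, T, 2 free letters and CC.
C4BPA: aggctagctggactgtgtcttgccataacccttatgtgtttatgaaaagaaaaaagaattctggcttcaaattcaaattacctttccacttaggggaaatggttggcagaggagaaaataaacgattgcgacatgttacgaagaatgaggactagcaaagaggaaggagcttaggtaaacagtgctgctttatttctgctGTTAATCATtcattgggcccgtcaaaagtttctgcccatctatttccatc
LCN2: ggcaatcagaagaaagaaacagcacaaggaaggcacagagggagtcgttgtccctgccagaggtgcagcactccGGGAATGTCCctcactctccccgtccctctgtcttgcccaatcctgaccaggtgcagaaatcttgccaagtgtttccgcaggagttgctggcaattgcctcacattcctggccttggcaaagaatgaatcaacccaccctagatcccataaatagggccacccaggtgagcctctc
The first begins 50 and the second 176 bases before the start site. The NF-kB motif lies in 19.7% of all promoter stretches and in 1 of 9 acute phase genes in the table, LCN2. TTCNNNGAA, a STAT motif, lies in 6.57% of all and in 2 of the 9, CFB and HAMP, and TTGCNNAA, a C/EBP motif, in 9.05% of all and in 2 of the 9, LCN2 and SAA4. Both strands were searched. Of the 25 plasma protein genes in the table, 4 hold the NF-kB motif, 7 the STAT motif and 9 the C/EBP motif.

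The acute phase list was chosen with earlier results of these data known, and further lists after these values were seen. Their counts therefore describe replicate 5 and add no support that it stood apart. Of 16 inflammatory targets 14 had a mean of at least 1 FPKM. Of these 13 were highest in replicate 5, where 18.8% of protein-coding genes are highest. SOD2, the mitochondrial superoxide dismutase, stood at 118, 103, 132, 126 and 378, the phospholipase PLA2G2A at 5.83, 5.42, 6.49, 5.74 and 38.7, the chemokine CXCL1 at 6.74, 6.78, 5.7, 6.16 and 16.3 and S100A9 at 6.43, 5.65, 7.02, 7.26 and 17.96. In transcripts carrying its name alone SOD2 held 176 in replicate 5 and 53.8 to 99.7 in the others. Of all 32 hepatocyte plasma proteins 11 were lowest and 9 highest in replicate 5. Of the 8 among them known to fall in the acute phase 7 were lowest in replicate 5, where 17.9% of protein-coding genes are lowest. APOA2 stood at 104, 107, 117, 117 and 45.5, TTR at 708, 748, 660.4, 751 and 402, HRG at 161, 162, 161, 173 and 115 and TF at 602, 557, 533, 658 and 411, so that APOA2 in replicate 5 was 0.409 and TTR 0.561 times the mean of the others. Among the 8, RBP4 was the exception, at 1100.4, 1206, 1222, 1323 and 1201. Among the 16 hepatocyte transcription factors 5 were highest and 4 lowest in replicate 5. HHEX was lowest there at 10.1 against 13.9 to 14.8 FPKM, and FOXA1 at 9.197 against 10.3 to 10.5. Macrophage markers were highest in sum in replicate 5 (41.9 FPKM) and next in replicate 4 (38.7), with PTPRC at 0.00798 and C1QA, C1QB and C1QC listed at 0 in replicate 5, and their part in the result was not tested.

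Replicate 1 was highest for immediate early genes, which cells switch on within minutes of a stimulus, also a list chosen after the values were seen. Its count is therefore a description too. Of 17 with a mean of at least 1 FPKM 15 were highest there, where 21.1% of protein-coding genes are highest. EGR1 stood at 82.1, 42.9, 42.4, 51.7 and 34.3, FOS at 16.7, 8.22, 9.06, 11.6 and 7.91, IER2 at 24.7, 14.96, 13.6, 15.9 and 14.8 and DUSP1 at 23.6, 15.8, 14.2, 15.7 and 13.5. Replicate 1 was 1.92 times the mean of the others for EGR1 and 1.81 times for FOS, and BTG2 and KLF6 were highest in replicate 2. The acute phase list summed to 3307 FPKM in replicate 1, against 2530, 2855, 3959 and 10396 in replicates 2 to 5.

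**Figure D5:**
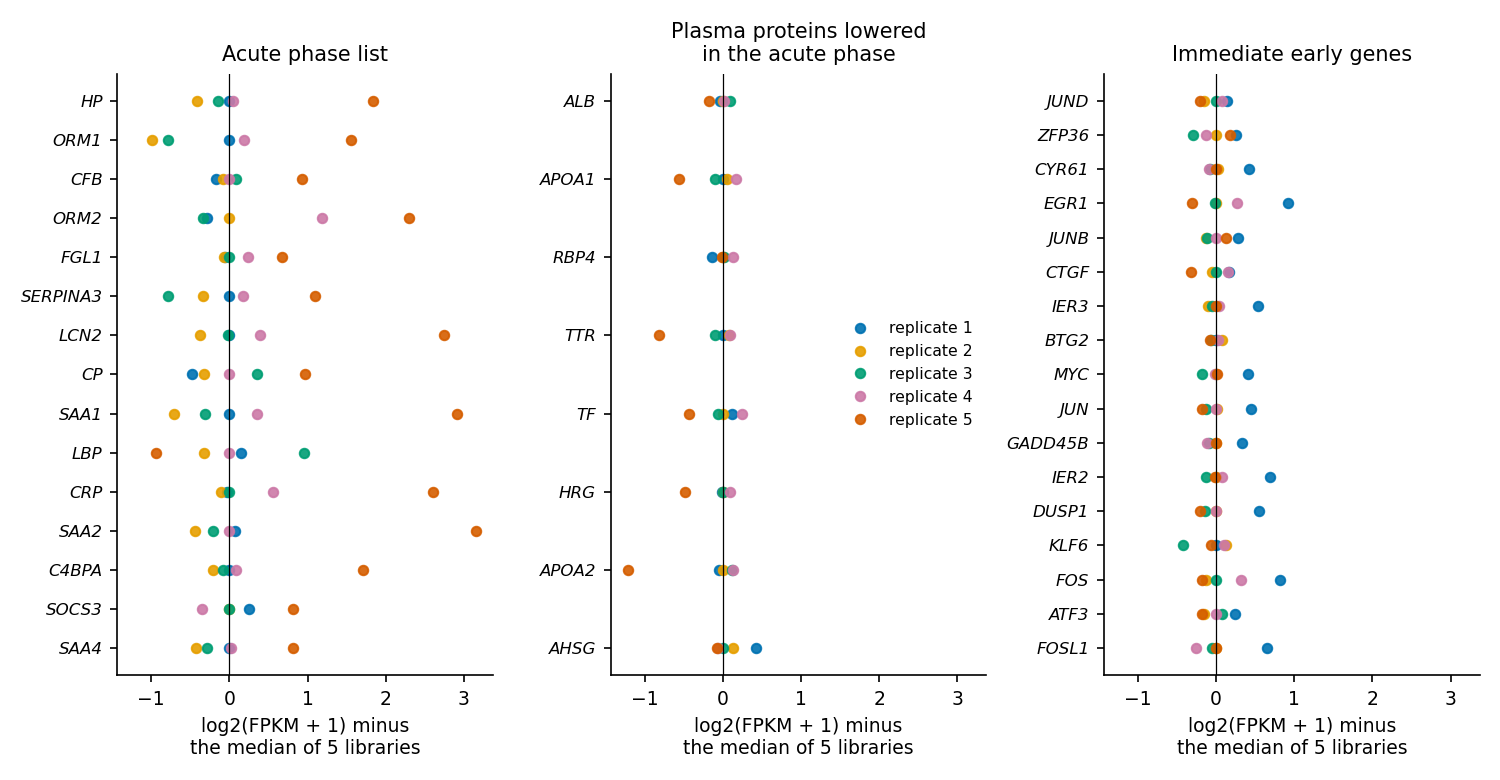
Each gene's log2(FPKM + 1) in each library minus the median of the 5 libraries, for 15 acute phase genes, 8 plasma proteins known to fall in the acute phase and 17 immediate early genes, 1 dot per library. Replicate 5 lies right of the others for 14 of the 15 and left for 7 of the 8, and replicate 1 lies right for 15 of the 17. The plasma protein and immediate early lists were chosen after the values were seen.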

How the data were processed

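RNA was made into stranded total RNA libraries with ribosomal RNA removed, from 100 ng and with 14 PCR cycles, and sequenced as 75-base pairs in 3 pools, per the labels' protocols. The labels do not say which pool held which library, so pools were not tested. The deposited table gives FPKM per transcript for 239290 transcripts. GRCh38, StringTie, HISAT and HISAT2 are named, with no version or role, in the submitters' processing notes. Use of the strand in counting was not given in these sources, so overlapping and antisense genes are uncertain.

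FPKM was summed by gene name. Of the 40117 assembled transcripts, 18349 without a name were given to the locus's gene where it had a single named one. Adding more by overlap (6359) was chosen after seeing the data. Transcript types came from GENCODE release 29 (198877 transcripts matched). In all, 25 gene names turned into dates (335 transcripts) were restored for 333, 1 broken line was rejoined and 1 negative value was set to 0. Gene coordinates are GRCh38 and span the named transcripts of a gene as deposited. Depth was estimated from the FPKM of 1 fragment in 17521 single-exon transcripts of 300 to 1500 bases, at 13300000, 20180000, 17660000, 11540000 and 24420000 fragments. Interval and counting values cover counting error only.

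The single group has no contrast and no p-value is given. Spread is the SD, the CV or the SD of log2(FPKM + 1), and the steps were tested on simulated data. The members and lists were chosen with earlier results of these data known. Named are the 20 highest protein-coding and 5 highest non-coding genes, all members of the hepatocyte, biliary, P450, UGT, transporter, receptor, bile acid and acute phase lists, and reference genes. Of other lists the 4 highest, those under 1 FPKM and those with a library apart were named. The 20 most variable and 10 least variable genes with a current official symbol complete the rule, and a few further members were named after their values were seen. Some members of the lists are counted but not reported by name here, nor plotted. Motifs were chosen after the sequences were seen. Python 3.11.15, pandas 2.3.3, numpy 2.4.6, scipy 1.17.1 and matplotlib 3.10.9 were used.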

Additional observations from a re-analysis of the deposited data

Results flagged for a closer look

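In 46 of 386 gene levels looked at, 1 of the 5 libraries stood apart from the other 4 by a gap of over 0.71 of the whole range on the log2(FPKM + 1) scale, where chance gives about 1 in 20. The levels looked at include the most variable genes and lists chosen with values of these libraries known, so this share is not read against chance. Over all genes and loci with a mean of at least 5 FPKM the share was 7.61%, 663 of 8713, and the lone library was replicate 4 in 172 of these, replicate 5 in 165 and each of the others in 105 to 111. Values are in FPKM, that library first and the range of the other 4 second.

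Replicate 5 was apart in 28 of the 46. It was high for the acute phase genes CRP (102 against 14.8 to 24.1), SAA2 (111 against 8.31 to 12.3), HP (3774 against 790.1 to 1094), CFB (1054 against 493 to 587), C4BPA (59.2 against 14.9 to 18.5) and LCN2 (261 against 29.1 to 50.4). It was high for the inflammatory targets SOD2 (378 against 103 to 132), PLA2G2A (38.7 against 5.42 to 6.49), S100A9 (17.96 against 5.65 to 7.26), CXCL1 (16.3 against 5.7 to 6.78), BIRC3 (6.701 against 2.95 to 3.75) and CCL20 (5.56 against 2.79 to 3.42). The bile acid enzyme CYP7B1 (8.34 against 6.104 to 6.54), the translation factor copy EIF3CL (64.1 against 0.247 to 1.8) and the microRNA host locus MIR4709 (48.4 against 0.233 to 0.497) were high as well. It was low for the plasma proteins APOA2 (45.5 against 104 to 117), TTR (402 against 660.4 to 751) and HRG (115 against 161 to 173), and for the factors FOXA1 (9.197 against 10.3 to 10.5), HHEX (10.1 against 13.9 to 14.8) and SOX4 (21.2 against 27.5 to 30.1). Drug genes low there were CYP4A11 (2.06 against 5.96 to 7.72), SULT1A1 (33.4 against 41.2 to 43.2), NQO2 (1.03 against 3.26 to 4.75) and ABCB1 (16.96 against 21.8 to 23.9). So were RN7SL2 (16758 against 41693 to 56373), RN7SL4P (0.758 against 7412 to 9240.4) and the ferritin pseudogene FTH1P10 (0.562 against 33.98 to 84.4). With assembled transcripts of its shared locus added, NQO2 held 5.12 in replicate 5 against 4.2 to 7.01, and replicate 4 was lowest.

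Replicate 1 was high for the immediate early genes FOSL1 (10.3 against 5.03 to 6.202), IER2 (24.7 against 13.6 to 15.9), IER3 (46.7 against 29.6 to 32.7), DUSP1 (23.6 against 13.5 to 15.8), CYR61 (67.2 against 46.7 to 50.96) and GADD45B (22.04 against 15.9 to 17.3), and for AMACR (6.03 against 4.72 to 5.01) and SNORD17 (166 against 0.301 to 2.18). Replicate 2 was high for CLDN4 (1.42 against 0.814 to 0.968), UGT1A4 (5.31 against 0.626 to 1.02) and SCARNA2 at 432 against 0 in the other 4, and low for CEBPA (21.6 against 25 to 26.2) and MIR663AHG (15.6 against 1969 to 2478). Replicate 3 was high for AKR1B10 (605 against 264 to 329) and low for MT-CYB (0 against 679 to 852) and MTATP6P1 (0 against 98.3 to 139). Replicate 4 was low for CYP4V2 (0.2801 against 11.3 to 12.9) and NR1H3 (7.43 against 9.49 to 10.3).

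Replicate 2 was also apart in what it detected. It held 17534 genes and loci at 1 FPKM or more against 15227 to 15726, of which 3122 were assembled loci against 1701 to 2037 and 1155 long non-coding genes against 878 to 938.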

How the results depend on the processing

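Dropping each library in turn gave 13366 to 13599 detected genes and loci, shares of 41.4% to 44.1%, 55.5% to 57.4% and 71.1% to 72.2% for the top 10, 100 and 1000, an ALB mean of 9373 to 9808 FPKM, 304 to 307 detected list members (303 with all 5), 105 to 108 detected drug genes, 550 to 598 genes with a wide spread and 524 to 624 with a lone library. A gene had to reach 1 FPKM in every library kept, so dropping a library could not lower the detection counts. With transcripts carrying the gene name only, the top 1000 held 68.1% and 1258 genes had a wide spread. With assembled transcripts added by overlap, chosen after seeing the data, these were 74.4% and 352. Rescaled to TPM, ALB stood at 15245, since the deposited FPKM of a library do not sum to the TPM total, and 978 genes were wide, of which the cause was not tested. Counting a gene in at least 1 library gave 20297. Including genes from a mean of 1 FPKM gave 1472 wide genes and 1186 with a lone library. The genes that passed the mean filter changed with the setting. Counts of wide genes and of lone libraries therefore do not share the base of 8713 and are not set against it. Protein-coding genes alone gave top shares of 13.5%, 31.6% and 61.9%. Median-ratio scaling, with factors of 0.969 to 1.04, kept all 409 gene levels within 1 SD. With transcripts carrying the gene name only 67 of the 409 moved further, with overlap added 27 and rescaled to TPM 362. A threshold of 0.5 FPKM gave 15737 detected genes and loci, 331 list members and 120 drug genes. Without replicate 5 the means of SAA1, SAA2, CRP, LCN2, HP, ORM1, ORM2, C4BPA and PLA2G2A became 16.3, 10.5, 17.6, 38.7, 973, 831, 253, 16.8 and 5.87 FPKM. Without replicate 1 HBB fell to 2.24 and PHB2 to 10.6, without replicate 2 UGT1A4 to 0.774, without replicate 3 RPL17 to 23.9 and UGT2B10 to 0.860, without replicate 4 HSPA1B to 23.5, and without replicate 5 EIF3CL to 0.826. No paired analysis was possible because there is a single group.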
